A study of Mus musculus with 12 samples.

Results

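The genes described here are the mouse UDP-glucuronosyltransferases (Ugt), glutathione S-transferases (Gst), cytosolic sulfotransferases (Sult) and carboxylesterases (Ces). Every gene probe whose accession mapped to a mouse symbol of these families was taken, which gave 98 probes of 74 genes among 55681 gene probes and 21613 named genes on the array. The 74 genes comprised 15 Ugt, 21 Gst, 20 Sult and 18 Ces genes, and a further 13 of the 87 RefSeq symbols of the families, Ugt1a1 and Gsta1 among them, had no matched probe and were not analysed here. A gene was counted as measured if, in 1 or more groups, both arrays read a probe of it well above background. This held for 58 of the 74 genes (14 Ugt, 19 Gst, 10 Sult and 15 Ces), of 13901 genes measured in all.

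The study compared livers of male C57BL/6NJcl mice given a steatohepatitis-inducing diet with livers of mice given the standard chow CE-2. The former diet, abbreviated CDAHFD, was deficient in choline, defined in its L-amino acids and high in fat, with 60% of its calories from fat and 0.1% methionine. Whole-liver RNA was taken after 1, 2 and 6 weeks of feeding, at ages of 7, 8 and 12 weeks, from each diet, and 150 ng of each sample was labelled with Cy3 for 1-colour Agilent arrays. There were 6 groups of 2 arrays, called replicates 1 and 2, and 12 arrays in all. The labels name no engineered allele, and the 2 groups of each week differed in the whole diet, chow against a purified diet, not in a single nutrient. The labels do not say whether the 2 arrays of a group came from separate mice, so the p-values measure the spread between arrays, which may be technical.

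The families make fat-soluble compounds easier to excrete. Ugt enzymes of the endoplasmic reticulum attach glucuronic acid from UDP-glucuronate to bilirubin, steroids and drugs, Gst enzymes attach glutathione to electrophiles and peroxidised lipids, and Sult enzymes transfer sulfate from PAPS to phenols, steroids and bile acids. Carboxylesterases cut ester and amide bonds of drugs, and several of them also hydrolyse triacylglycerol stored in hepatocytes. All 4 families are abundant in hepatocytes.

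Levels are given as log2 of a probe's intensity minus its array's 75th percentile, so that 0 is the level of that percentile, and levels of different probes are not comparable. Differences are CDAHFD minus control on this log2 scale with the standard error of the fit (2 arrays a group), less the median difference of all genes. That median was 0.13 at 1 week, 0.06 at 2 weeks, 0.04 at 6 weeks and 0.08 for the 3 weeks averaged. The difference of the printed group levels exceeds the printed difference by that median. A gene was called higher or lower where its Benjamini-Hochberg adjusted p from limma over all genes was under 0.05. The p tests the difference before that median is taken off, so a small printed difference and its p can disagree: Ugt2b34 at 1 week had −0.0 and adjusted p 0.424.

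Probes well above background made up 41.6% to 45.7% of all probes on control arrays and 46.9% to 51.0% on CDAHFD arrays. The replicates of the 1-week control group differed from each other more (SD of the log2 difference over genes 0.85) than those of any other group (0.29 to 0.49). Replicate 1 of that group had 9 dim blocks holding 2137 probes, with probes of 2 genes of the families, and a left edge with probes of 4. With the blocks masked, with or without the edge, 6 genes of the families were still called higher and 32 lower at 1 week. The part of these blocks in that spread was not tested. Weeks 1 and 2 shared a slide and week 6 lay on another, each with both diets. Hepatocyte markers were lower in 6, 4 and 2 of 7 at 1, 2 and 6 weeks, with a summed level of 214 to 383 times the 75th percentile in controls and 161 to 199 on CDAHFD. Macrophage markers were higher in 2, 4 and 4 of 6 (4.81 to 9.33 against 12.1 to 19.2), stellate cell markers in 4 of 5 at each week (0.351 to 0.708 against 1.92 to 2.55) and cholangiocyte markers in 1, 1 and 2 of 5 (0.213 to 0.328 against 0.38 to 1.44). Erythroid markers were lower in 3 of 3 at each week (12.6 to 16.5 against 4.59 to 6.78). The endothelial sum was higher on CDAHFD at 1 week (3.30 to 3.44 against 3.75 to 4.13), overlapped at 2 weeks and was lower at 6 weeks (3.38 to 3.53 against 2.81 to 2.84). Gene by gene, 1 of 4 endothelial markers was called higher at each week and 0, 0 and 2 lower. Their differences reached from −0.94 to 1.01 at 6 weeks. The lymphocyte sum overlapped at 1 week and was higher at 2 weeks (0.488 to 0.506 against 0.528 to 0.561) and 6 weeks (0.455 to 0.460 against 0.512 to 0.722). Of the 4 lymphocyte markers 2, 0 and 1 were called higher and 1, 0 and 0 lower, with differences from −1.02 to 2.23 at 1 week. The shares of all genes called are given in the next paragraph. Against the direction of their lists, Itgam of the macrophage list (−1.09, adjusted p 0.0148) and Sox9 of the cholangiocyte list (−0.76, adjusted p 0.0490) were lower at 1 week. No marker of these lists was below background on all arrays of a diet. In whole-liver RNA, fewer cells of a type and less RNA per cell cannot be told apart, and the part of these markers in the results below was not tested.

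More members were called lower than higher on CDAHFD at each week. At 1 week 32 of the 58 measured genes were lower and 6 higher, while 15.1% of all genes tested were called lower, 25.8% higher and 40.9% either way. At 2 weeks 32 were lower and 6 higher, beside 14.7%, 23.0% and, either way, 37.7% of all genes. At 6 weeks 36 were lower and 6 higher, beside 16.0%, 24.6% and 40.6%. In the average of the 3 weeks 39 were lower and 7 higher, beside 25.6%, 35.7% and 61.2%. The lower calls therefore made up a larger share of the members than of all genes, and the higher calls a smaller share. The median difference of the measured members was −0.78, −0.72 and −0.70 at 1, 2 and 6 weeks, against 0 for all genes by construction. Of the measured genes 27 were called lower at every week, 4 higher at every week (Sult1e1, Sult1d1, Gstp3 and Ces1a), 9 at no week, and Ugt2a1 was called in opposite directions at 1 and 6 weeks. The filter kept Ugt2a1 and Sult2a6 only through the group in which each was high, and without them 5 members were called higher at 1 week and 5 at 6 weeks, where 35 were lower.

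Signal level bears on these shares. Of the 58 measured members 38 lay in the brightest of 5 equal groups of genes by mean level (10 Ugt, 15 Gst, 2 Sult and 11 Ces), where 37.1%, 34.4% and 31.9% of all genes were called lower at 1, 2 and 6 weeks. Among those 38 members 27, 26 and 28 were lower, with a median difference of −0.82, −0.82 and −0.77, beside −0.35, −0.27 and −0.24 for all 2781 genes of that group. Among the brightest genes the members thus had a lower median than all genes of that group, which as a class lay lower too. The other 20 measured members, 4 or 6 in each dimmer group, were less uniform. Their median lay above that of all genes in the dimmest group at 1 week (0.43 against 0.28). At 2 and 6 weeks it lay below there (−0.65 and −0.23 against 0.32 and 0.39). In the second dimmest group it was below at each week (−0.36, −0.05 and −1.01 against 0.24, 0.16 and 0.17). In the middle group it was below at 1 week (−0.36 against 0.11). There it was about level at 2 and 6 weeks (0.05 against 0.04 and 0.03 against 0.05). In the second brightest it was below at each week (−0.54, −0.63 and −0.50 against −0.04, −0.05 and −0.06). Quantile normalization left 19 members lower and 7 higher at 1 week.

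**Figure D1:**
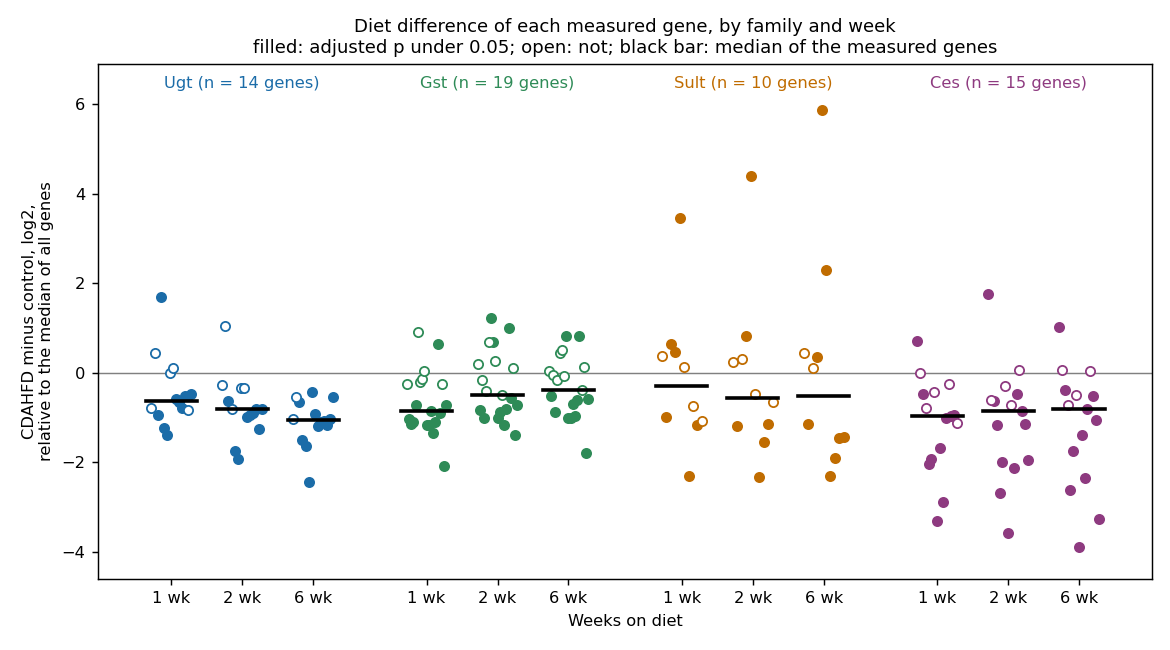
Diet difference (CDAHFD minus control, log2, relative to the median of all genes) of each measured Ugt, Gst, Sult and Ces gene at 1, 2 and 6 weeks; filled points passed the adjusted p threshold of 0.05, open points did not, and black bars are medians of the measured genes. The Ugt medians go from −0.63 to −1.05 and the Gst medians from −0.85 to −0.39, and Sult1e1 is the point at 3.46, 4.39 and 5.87.

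The families' counts and medians differed over the weeks, and the difference between families was not tested. Of 14 measured Ugt genes 8, 9 and 12 were lower at 1, 2 and 6 weeks and 1, 0 and 0 higher, with medians of −0.63, −0.82 and −1.05 (10, 11 and 13 of the 14 had an unadjusted limma p under 0.05 in either direction). Of 19 Gst genes 12, 9 and 9 were lower and 1, 3 and 2 higher, with medians of −0.85, −0.50 and −0.39. Among 10 Sult genes 3, 4 and 5 were lower and 3, 2 and 3 higher, with medians of −0.30, −0.57 and −0.52. Of 15 Ces genes 9, 10 and 10 were lower and 1 higher at each week, with medians of −0.97, −0.85 and −0.82. Under quantile normalization the 1-week medians became −0.14 (Ugt), −0.27 (Gst) and −0.45 (Ces), and that of Sult turned to 0.13; the 6-week medians were then −0.92, −0.11, −0.55 and, for Sult, −0.50. In 29 measured members all 6 CDAHFD arrays lay below all 6 control arrays and in 4 above them, beside 11.0% and 21.1% of all genes.

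**Figure D2:**
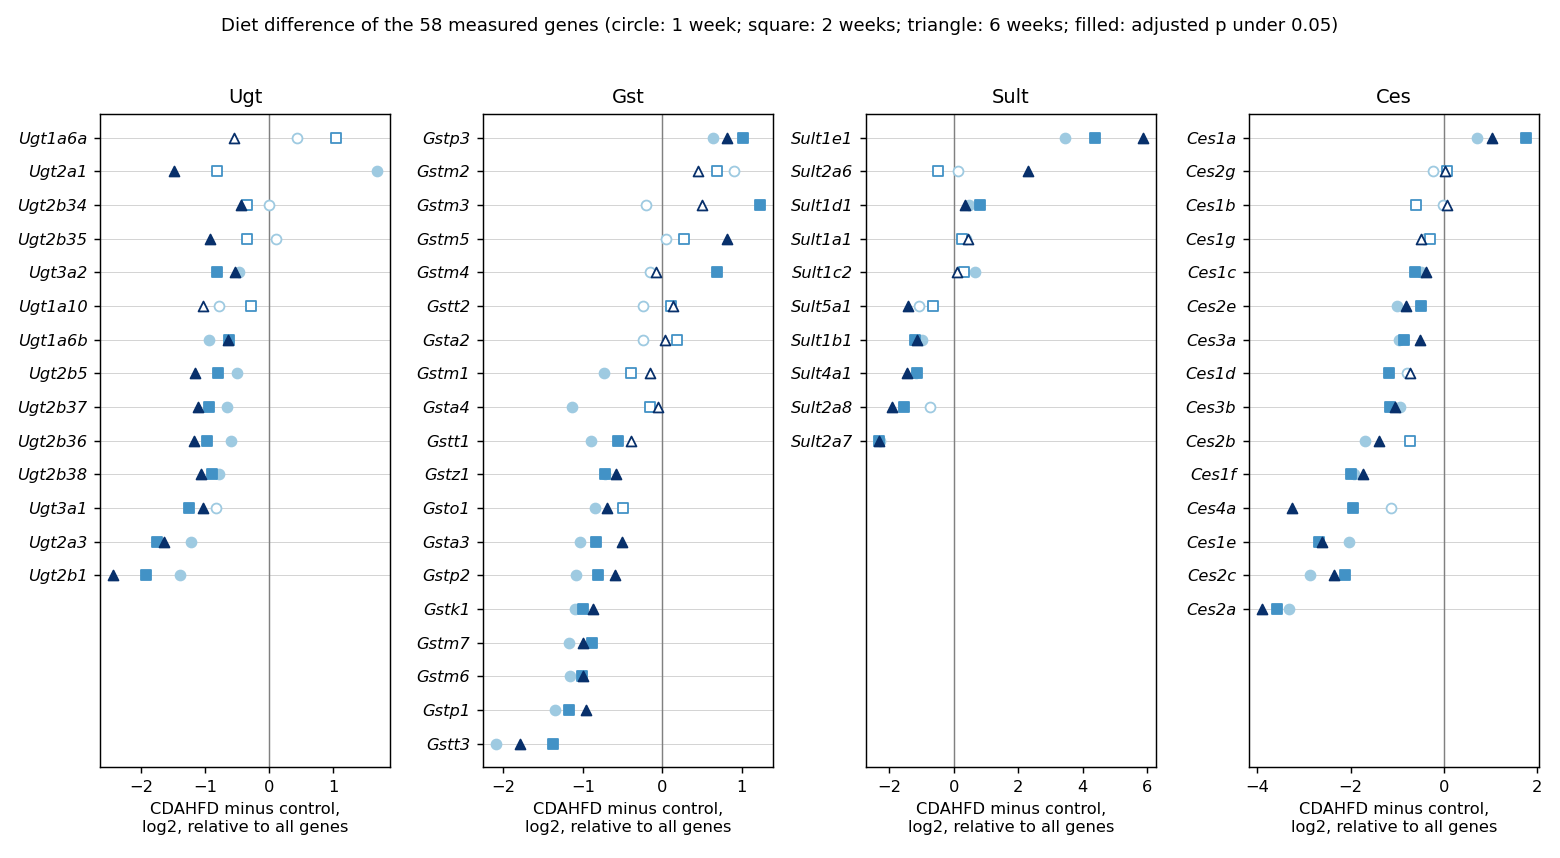
Diet difference (log2, relative to the median of all genes) of the 58 measured genes, 1 line a gene within its family; circles are 1 week, squares 2 weeks and triangles 6 weeks, filled where the adjusted p was under 0.05. Ces2a lies at −3.32 to −3.90, the Ugt2b genes lie further left at 6 weeks than at 1 week, and the Gstm genes spread to both sides of 0.

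Carboxylesterases held the largest falls of the members. Ces2a, an esterase of drugs and acylglycerols, stood at 5.45 and 5.17 (log2 level) on the 2 control arrays at 1 week, 5.26 and 4.90 at 2 weeks and 5.20 and 5.07 at 6 weeks. On CDAHFD its log2 levels were 2.02 and 2.23, 1.71 and 1.42, and 1.58 and 0.96. The groups did not overlap at any week, and all 6 CDAHFD arrays lay far below all 6 controls. The difference was −3.32 ± 0.21, −3.57 ± 0.21 and −3.90 ± 0.21 (SE), a fall of 9.97-, 11.9- and 15-fold (adjusted p 7.1e-06, 2.3e-06 and 8.7e-07).

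Ces2c, a close relative of Ces2a with like substrates, had log2 levels of 3.68 and 3.34, 3.22 and 2.71, and 3.08 and 2.72 in controls at 1, 2 and 6 weeks. The CDAHFD levels were 0.90 and 0.61, 0.86 and 0.95, and 0.42 and 0.75, again with no overlap. The difference was −2.88 ± 0.20, −2.12 ± 0.20 and −2.36 ± 0.20 (adjusted p 1.2e-05, 3.6e-05 and 1.3e-05). Its other 2 probes fell less, by 1.31 and 1.27 in the average of the weeks, and were not called at 2 weeks (adjusted p 0.0600 and 0.0511), and with the mean of the 3 probes the 2-week difference was −1.15. Ces2b fell at 1 and 6 weeks (−1.68 ± 0.27 and −1.38 ± 0.27, adjusted p 0.00159 and 0.00311) and Ces2e at all 3 weeks (−1.01, −0.48 and −0.82) by its brighter probe, the other probe being called at none (−0.56, −0.05 and −0.75, adjusted p 0.345, 0.994 and 0.134), while Ces2g was called at none (−0.24, 0.07 and 0.03).

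Ces1e, also known as egasyn, which holds beta-glucuronidase in the endoplasmic reticulum, had log2 levels of 2.54 to 3.33 on the 6 control arrays and 0.06 to 1.14 on the 6 CDAHFD arrays. The lowest control array thus lay above the highest CDAHFD array, and the CDAHFD replicates at 6 weeks were 1.14 and 0.06. The difference was −2.03 ± 0.29, −2.68 ± 0.29 and −2.61 ± 0.29 (adjusted p 8.7e-04, 1.1e-04 and 1.1e-04). Ces1f, which also hydrolyses triacylglycerol, fell by 1.92, 2.00 and 1.74 ± 0.12 at 1, 2 and 6 weeks, with control log2 levels of 3.01 to 3.31 and CDAHFD levels of 1.13 to 1.60.

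Ces1d, the main triacylglycerol hydrolase of hepatocyte endoplasmic reticulum, changed less firmly. Its log2 levels were 3.29 and 3.64, 3.46 and 3.83, and 3.37 and 3.43 in controls, and 2.70 and 2.91, 2.53 and 2.51, and 3.32 and 2.12 on CDAHFD, so that 1 CDAHFD array at 6 weeks reached the controls' range. It was called lower at 2 weeks (−1.17 ± 0.32, adjusted p 0.0231) and in the average (−0.90 ± 0.19, adjusted p 0.00413), and not at 1 and 6 weeks (−0.79 and −0.72, adjusted p 0.131 and 0.125). The 2-week call was lost without any 1 of the 4 arrays of that week (differences −1.35 to −1.0, adjusted p 0.0513 to 0.122), under quantile normalization (−0.84, adjusted p 0.0720) and with normexp (−0.99, adjusted p 0.0624).

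Ces3a, an abundant liver carboxylesterase, had control log2 levels of 6.01 and 5.61, 5.62 and 5.34, and 5.18 and 5.08, and CDAHFD levels of 4.90 and 5.05, 4.73 and 4.64, and 4.67 and 4.65. All 6 CDAHFD arrays lay below all 6 controls, and the control levels themselves were lower at the later weeks. The difference was −0.97 ± 0.15, −0.85 ± 0.15 and −0.51 ± 0.15 (adjusted p 0.00143, 0.0019 and 0.0267), and the 6-week call was lost without any 1 of that week's 4 arrays (−0.56 to −0.46, adjusted p 0.0596 to 0.134). Against the controls of the other weeks the 1-week difference was −0.40 and was not called (adjusted p 0.0675). Under quantile normalization it was −0.19, −0.27 and −0.14 and was called at 2 weeks alone (adjusted p 0.256, 0.0306 and 0.126). Ces3b fell by 0.94, 1.15 and 1.05 ± 0.13.

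Ces1c, the carboxylesterase of mouse plasma, which is made in the liver, had log2 levels of 4.15 to 4.35 on the control arrays and 3.60 to 3.97 on the CDAHFD arrays. The groups did not overlap, but the differences were small, at −0.48, −0.62 and −0.39 ± 0.12 (adjusted p 0.0395, 0.00448 and 0.0387). The 1-week call was lost without any 1 of 8 arrays, namely the 4 of that week, both CDAHFD arrays of 2 weeks and both controls of 6 weeks (−0.58 to −0.39, adjusted p 0.0551 to 0.200). The 6-week call was lost without any 1 of 5, namely both CDAHFD arrays of 2 weeks, both controls of 6 weeks and CDAHFD replicate 2 of 6 weeks (−0.42 to −0.24, adjusted p 0.0543 to 0.214). With normexp the 1- and 6-week calls were lost too (−0.11 and −0.27, adjusted p 0.100 and 0.0766). Under quantile normalization no week was called, the 1-week difference turned to 0.09 and the average fell from −0.50 to −0.08 (adjusted p 0.367).

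Ces4a was dim. Its log2 levels were −3.49 and −4.33, −4.32 and −4.78, and −5.00 and −4.30 in controls, and −5.27 and −4.55, −6.48 and −6.41, and −8.44 and −7.29 on CDAHFD, where both 6-week arrays were not well above background. At 6 weeks it was at least 5.26-fold lower on CDAHFD (adjusted p 2.4e-04), a bound that sets the controls against the dimmest signal measured above background; with normexp background correction the 6-week difference was −0.95 (adjusted p 0.00847), less than that bound. It was also lower at 2 weeks (−1.95 ± 0.44, adjusted p 0.00668; without control replicate 1 of 2 weeks −1.71, adjusted p 0.0533; with normexp −0.87, adjusted p 0.0103), and at 1 week it was −1.13 ± 0.44 (adjusted p 0.0929). Ces1a was the member of the family called higher, from control log2 levels of −7.06 to −6.31, above background on 3 of 6 arrays, to −6.09 to −4.93 on CDAHFD, above background on all 6. It was at least 1.54-fold higher at 1 week (adjusted p 0.0279), at least 2.77-fold at 2 weeks, when 1 control array was above background (adjusted p 4.4e-04), and differed by 1.03 ± 0.27 at 6 weeks (adjusted p 0.0088). The 1-week call was lost without any 1 of that week's arrays (0.65 to 0.81, adjusted p 0.0557 to 0.147), with median centring (adjusted p 0.0620) and against the controls of the other weeks (0.49, adjusted p 0.0876), the 6-week call without CDAHFD replicate 2 (0.83, adjusted p 0.0701), and with normexp the differences were −0.36, 0.29 and 0.21, with no call. Ces1b and Ces1g were called at no week. The Ces1 genes are near copies of each other, so a probe can pick up a neighbour's transcript and the values of single Ces1 genes are uncertain to that extent.

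Among the glucuronosyltransferases, 9 Ugt2 genes on chromosome 5 were measured, 8 of them above background on all arrays. Of those 8, 6 were lower at 1 and at 2 weeks and all 8 at 6 weeks, with medians of −0.63, −0.92 and −1.14; Ugt2b34 and Ugt2b35 were not called at 1 week (−0.0 and 0.11) or 2 weeks (−0.35 and −0.34). The change from 1 to 6 weeks was called in 3 of the 8, Ugt2b1, Ugt2b5 and Ugt2b36, and Ugt2a3 stood at −1.75 at 2 weeks and −1.64 at 6 weeks. The 250 bases before the start of Ugt2b5, Ugt2b37 and Ugt2b38 are shown, which share an unbroken run of 62 bases close to the start. The run was sought in these 3 promoters alone, so it is not known whether other Ugt2 genes hold it. Ugt2a3 is shown beside them. The part of these sequences in the diet differences was not tested. The sequences are from RefSeq, build GRCm38.p6, minus strand, 5′ to 3′. Ugt2b5 is read at chr5:87140341-87140590, Ugt2b37 at chr5:87254789-87255038, Ugt2b38 at chr5:87424204-87424453 and Ugt2a3 at chr5:87337196-87337445. Capitals mark the 62-base run in the Ugt2b promoters and, in Ugt2a3, both matches to GTTAAT, the core of an HNF1 site.
Ugt2b5: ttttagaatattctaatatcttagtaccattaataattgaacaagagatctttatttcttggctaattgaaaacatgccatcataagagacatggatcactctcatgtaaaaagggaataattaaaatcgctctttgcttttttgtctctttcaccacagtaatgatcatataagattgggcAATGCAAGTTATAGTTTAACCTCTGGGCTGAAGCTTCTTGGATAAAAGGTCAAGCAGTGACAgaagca
Ugt2b37: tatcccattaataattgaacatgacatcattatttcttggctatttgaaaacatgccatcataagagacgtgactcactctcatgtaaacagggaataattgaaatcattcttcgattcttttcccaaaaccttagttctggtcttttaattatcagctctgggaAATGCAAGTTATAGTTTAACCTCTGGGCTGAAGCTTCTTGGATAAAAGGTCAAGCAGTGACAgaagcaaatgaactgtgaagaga
Ugt2b38: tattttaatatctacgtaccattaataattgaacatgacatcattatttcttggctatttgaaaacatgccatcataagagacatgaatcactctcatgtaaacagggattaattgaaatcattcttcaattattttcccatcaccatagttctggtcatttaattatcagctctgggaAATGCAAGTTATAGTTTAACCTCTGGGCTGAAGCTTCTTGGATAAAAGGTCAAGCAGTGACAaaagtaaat
Ugt2a3: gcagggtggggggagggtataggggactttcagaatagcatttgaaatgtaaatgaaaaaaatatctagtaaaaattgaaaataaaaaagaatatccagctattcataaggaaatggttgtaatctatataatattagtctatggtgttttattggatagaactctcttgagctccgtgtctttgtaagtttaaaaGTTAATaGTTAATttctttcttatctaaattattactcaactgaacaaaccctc
The shared run began 68, 85 and 71 bases before the start of Ugt2b5, Ugt2b37 and Ugt2b38. In global alignment Ugt2b37 and Ugt2b38 were identical at 85.2% of aligned columns, Ugt2b5 and Ugt2b38 at 81.5%, Ugt2b5 and Ugt2b37 at 73.0%, and each of them and Ugt2a3 at 47.2% to 51.5%. The GTTAAT matches of Ugt2a3 began 54 and 47 bases before the start. Searched on both strands, GTTAAT was held by 13 of the 74 promoter entries of members (17.6%) and by 6.43% of 32851 promoters of the same length. Only exact matches to GTTAAT were counted, and variants of the site were not searched. A match is a description of letters and not of binding.

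Ugt2b1, which conjugates steroids and phenols such as bisphenol A, had log2 levels of 2.09 and 1.65, 1.89 and 1.95, and 1.81 and 2.06 in controls at 1, 2 and 6 weeks. The CDAHFD levels were 0.61 and 0.58, −0.17 and 0.26, and −0.55 and −0.38. The controls were about level, the CDAHFD arrays lay below all of them, and the 6-week CDAHFD arrays were the lowest. The difference was −1.40 ± 0.17, −1.93 ± 0.17 and −2.44 ± 0.17 (adjusted p 3.5e-04, 2.2e-05 and 3.6e-06).

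Ugt2a3, a glucuronosyltransferase of bile acids, had control log2 levels of 2.36 to 2.58 and CDAHFD levels of 1.23 and 1.39, 0.71 and 1.01, and 0.93 and 0.73. The CDAHFD arrays lay below all controls, and the 1-week arrays were the highest among them. The difference was −1.23 ± 0.12, −1.75 ± 0.12 and −1.64 ± 0.12 (adjusted p 1.0e-04, 5.7e-06 and 5.4e-06).

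Ugt2b5, an abundant enzyme of steroid and drug glucuronidation, had control log2 levels of 4.05 and 3.93, 4.18 and 4.12, and 4.18 and 4.15, and CDAHFD levels of 3.67 and 3.55, 3.31 and 3.51, and 3.06 and 3.02. The CDAHFD arrays lay below all controls at each week. The difference was −0.51 ± 0.11, −0.80 ± 0.11 and −1.16 ± 0.11 (adjusted p 0.0166, 3.6e-04 and 1.9e-05). Its 1-week call was lost without control replicate 1 or CDAHFD replicate 2 of that week (−0.45 and −0.48, adjusted p 0.0995 and 0.0917), with normexp (−0.15, adjusted p 0.0605) and under quantile normalization (0.04).

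Ugt2b36, another enzyme of this cluster, had control log2 levels of 3.31 to 3.45 and CDAHFD levels of 2.92 and 2.84, 2.37 and 2.66, and 2.37 and 2.22, with no overlap. Its difference was −0.59, −0.98 and −1.18 ± 0.12 (adjusted p 0.00899, 1.5e-04 and 3.0e-05). Without control replicate 1 or CDAHFD replicate 2 of 1 week the first was −0.56 and −0.59 (adjusted p 0.0531 and 0.0526), and under quantile normalization −0.11 (adjusted p 0.755). Ugt2b38 (−0.79, −0.90 and −1.07) and Ugt2b37 (−0.66, −0.94 and −1.11) were lower at each week, and Ugt2b35 and Ugt2b34 at 6 weeks (−0.92 ± 0.20 and −0.44 ± 0.12, adjusted p 0.00574 and 0.0206) but not before. The coding sequences of these genes are alike enough that probes may share signal among them, so their likeness to each other is uncertain.

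Ugt3a1, which transfers N-acetylglucosamine in place of glucuronic acid, had control log2 levels of −0.20 to 0.19 and CDAHFD levels of −1.34 to −0.40, with no overlap. It was lower at 2 and 6 weeks (−1.25 ± 0.27 and −1.04 ± 0.27, adjusted p 0.00646 and 0.0144) and stood at −0.84 ± 0.27 at 1 week (adjusted p 0.0583). The 2-week call was lost without CDAHFD replicate 1 of that week (−1.12, adjusted p 0.0501), and the 6-week call without control replicate 1 (−0.85, adjusted p 0.102) or CDAHFD replicate 2 (−0.68, adjusted p 0.0971). Ugt3a2 was lower at each week (−0.48, −0.82 and −0.54), and its other probe was called at 2 weeks alone (−1.14, adjusted p 0.0134).

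Of the Ugt1a genes, which share their last exons and differ in the first, Ugt1a6b had control log2 levels of 4.80 to 5.15 and CDAHFD levels of 4.14 to 4.41. It fell by 0.94, 0.63 and 0.65 ± 0.12 by its brighter probe (adjusted p 5.2e-04, 0.00356 and 0.00229), and its other probe, with −0.42 in the average (adjusted p 0.161), was not called. Ugt1a10 and Ugt1a6a were called at no week by the probes read. The other probe of Ugt1a10 was lower at 6 weeks (−2.29, limma adjusted p 0.0133), but it was above background on 2 arrays alone, so its size is uncertain. Ugt2a1, known best from nasal epithelium, was well above background on 1 of 6 control and 3 of 6 CDAHFD arrays. It was at least 1.89-fold higher at 1 week, when both CDAHFD arrays (log2 levels −5.56 and −5.86) and neither control array (−7.17 and −7.88) were above background. It was measured only through that group, so this is a description; its call was lost without control replicate 2 or CDAHFD replicate 1 of that week (1.35 and 1.57, adjusted p 0.0600 and 0.0801) and with normexp (−0.15). Its lower call at 6 weeks (adjusted p 0.0288) compared arrays that were all below background, has no fold, and was lost without control replicate 1 (adjusted p 0.189) or CDAHFD replicate 2 of 6 weeks (adjusted p 0.113).

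The glutathione transferases went both ways, within classes as well as between them. Lower calls were made in the alpha, mu, pi and theta classes, and higher calls in the mu and pi classes. All 3 measured pi-class genes lie next to each other on chromosome 19, where Gstp1 and Gstp2 fell and Gstp3 rose. The 250 bases before each start are shown (RefSeq, GRCm38.p6, minus strand, 5′ to 3′), and their part in these changes was not tested. Gstp1 is read at chr19:4037913-4038162, Gstp2 at chr19:4042222-4042471 and Gstp3 at chr19:4059448-4059697, and capitals mark TGACTCA, the AP-1 motif, which reads TGAGTCA on the opposite strand.
Gstp1: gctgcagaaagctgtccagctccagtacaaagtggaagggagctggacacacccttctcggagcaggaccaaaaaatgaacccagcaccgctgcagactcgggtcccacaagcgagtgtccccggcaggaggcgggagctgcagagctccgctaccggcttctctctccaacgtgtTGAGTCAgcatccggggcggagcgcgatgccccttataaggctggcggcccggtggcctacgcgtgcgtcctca
Gstp2: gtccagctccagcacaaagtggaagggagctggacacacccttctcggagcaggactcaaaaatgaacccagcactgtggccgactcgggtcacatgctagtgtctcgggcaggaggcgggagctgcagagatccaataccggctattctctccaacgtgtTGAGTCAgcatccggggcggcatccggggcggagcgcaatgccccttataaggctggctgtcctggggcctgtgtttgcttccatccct
Gstp3: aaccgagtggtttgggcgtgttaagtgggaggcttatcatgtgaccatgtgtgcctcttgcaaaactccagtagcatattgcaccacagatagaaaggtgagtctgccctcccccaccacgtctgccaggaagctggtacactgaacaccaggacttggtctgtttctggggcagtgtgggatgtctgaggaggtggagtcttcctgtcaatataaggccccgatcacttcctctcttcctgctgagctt
The motif began 74 and 89 bases before the start of Gstp1 and Gstp2, and these letters are not in the Gstp3 window. Gstp1 and Gstp2 were identical at 78.5% of aligned columns, and Gstp3 at 50.7% and 51.9% with each of them. Searched on both strands, TGACTCA was held by 6 of 74 member entries (8.11%) and by 4.46% of all promoters, and the antioxidant response element core TGACNNNGC by 3 (4.05%) and 10.2%. For these motifs too, variants of the site were not searched, so a promoter without a match may still hold a variant.

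Gstp1, the main pi-class enzyme of male mouse liver, had control log2 levels of 5.23 and 4.84, 4.58 and 4.50, and 4.23 and 4.41 at 1, 2 and 6 weeks. On CDAHFD its levels were 3.77 and 3.86, 3.44 and 3.42, and 3.42 and 3.39. The CDAHFD arrays lay below all controls, and both diets were highest at 1 week. The difference was −1.35, −1.17 and −0.96 ± 0.13 (adjusted p 9.0e-05, 1.2e-04 and 3.4e-04), and set against the controls of the other weeks the 1-week difference was −0.68 (adjusted p 0.00213).

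Gstp2, its near copy, fell by 1.09, 0.81 and 0.60 ± 0.16 (adjusted p 0.00101, 0.00401 and 0.0176); the 2 genes' probes may share transcripts, so their separate values are uncertain. Gstp3, the third pi-class gene, had control log2 levels of −2.93 and −2.47, −3.04 and −2.85, and −2.61 and −2.64, and CDAHFD levels of −1.93 and −1.93, −1.92 and −1.83, and −1.92 and −1.63. All CDAHFD arrays lay above all controls. The difference was 0.64, 1.01 and 0.81 ± 0.17 (adjusted p 0.00437, 6.0e-04 and 0.00214). Without control replicate 1 of 1 week the first was 0.41 (adjusted p 0.0396), and with normexp 0.52 (adjusted p 0.0941).

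The alpha class held abundant Gsta3, which isomerises steroids and conjugates epoxides such as that of aflatoxin, and Gsta4, which conjugates 4-hydroxynonenal, a product of lipid peroxidation. Gsta4 had control log2 levels of −1.21 and −1.09, −1.38 and −1.47, and −1.25 and −1.46, and CDAHFD levels of −2.01 and −2.31, −1.55 and −1.51, and −1.25 and −1.51. The diets were apart at 1 week, close at 2 weeks and overlapped at 6 weeks. The difference was −1.14 ± 0.14 at 1 week (adjusted p 3.9e-04), −0.16 at 2 weeks (adjusted p 0.586) and −0.06 at 6 weeks (adjusted p 0.919). Gsta3 fell by 1.04, 0.84 and 0.51 ± 0.13 (adjusted p 3.9e-04, 8.6e-04 and 0.0132), its other probe not being called at 6 weeks (−0.22, adjusted p 0.227), and Gsta2 was called at no week (−0.24, 0.19 and 0.03).

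The 7 mu-class genes went both ways, and their probes, which target near-identical transcripts, are uncertain one by one. Gstm1, the abundant mu-class enzyme, had control log2 levels of 5.29 and 5.23, 5.05 and 4.73, and 4.72 and 4.41, and CDAHFD levels of 4.65 and 4.67, 4.57 and 4.52, and 4.22 and 4.68, with overlap at 6 weeks. It was lower at 1 week (−0.73 ± 0.17, adjusted p 0.0162), not at 2 and 6 weeks (−0.40 and −0.16, adjusted p 0.134 and 0.609). That call was lost without control replicate 1, CDAHFD replicate 1 or CDAHFD replicate 2 of 1 week (−0.77 to −0.69, adjusted p 0.0580 to 0.0824) and against the controls of the other weeks (−0.13, adjusted p 0.745), and under quantile normalization its average turned from −0.43 to 0.09. Its other probe was not called (−0.07 in the average).

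Gstm6 and Gstm7 were called lower at each week. The difference of Gstm6 was −1.16, −1.01 and −1.0 ± 0.25 (adjusted p 0.00889, 0.0131 and 0.0114), and its other 2 probes fell by 0.96 and 0.91 in the average. Its calls were lost at 1 week without control replicate 2 or CDAHFD replicate 1 of that week (adjusted p 0.0513 and 0.0658), at 2 weeks without replicate 1 of either diet (adjusted p 0.0976 and 0.0740) and at 6 weeks without control replicate 1 (adjusted p 0.0598), and without CDAHFD replicate 1 the 6-week difference was −0.59. Under quantile normalization the 1- and 2-week calls were lost (−0.72 and −0.67, adjusted p 0.0892 and 0.0826). The difference of Gstm7 was −1.17, −0.88 and −1.0 ± 0.22 (adjusted p 0.00394, 0.0139 and 0.00556); its 2-week call was lost without control replicate 2 or CDAHFD replicate 1 of that week (−0.65 and −0.70, adjusted p 0.0981 and 0.108).

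The other mu-class genes were called higher at single weeks or not at all. Gstm3 was higher at 2 weeks, from 1.30 and 1.30 to 2.41 and 2.76 in log2 level (1.23 ± 0.30, adjusted p 0.00907; lost without control replicate 1 or CDAHFD replicate 2 of that week, 1.24 and 1.05, adjusted p 0.0515 and 0.0682), and stood at −0.20 and 0.50 at 1 and 6 weeks without a call. The other probe of Gstm3 was called higher at 2 weeks (1.44, adjusted p 0.00425) and also at 6 weeks (1.16, adjusted p 0.0118). Gstm4 was higher at 2 weeks (0.69 ± 0.17, adjusted p 0.00671) by its brighter probe, while its other probe was not called then (0.31) and was lower at 6 weeks (−0.89, adjusted p 0.0128). Gstm5 was higher at 6 weeks, from −1.80 and −1.71 to −0.94 and −0.87 (0.82 ± 0.17, adjusted p 0.00268). Gstm2 was called at no week by its brightest probe, and 1 of its other 2 probes was called higher at 2 weeks (0.91, adjusted p 0.0389); its control replicate 1 at 1 week read 0.01 beside 2.97 in replicate 2, from a dim edge of that array, and with that edge masked its 1-week difference went from 0.90 to −0.58.

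In the theta class Gstt3 had control log2 levels of 1.36 to 2.32 and CDAHFD levels of −0.27 to 0.64, with no overlap, and fell by 2.09, 1.38 and 1.79 ± 0.24 (adjusted p 2.4e-04, 0.00209 and 3.3e-04). Gstt1, which acts on small halogenated compounds, was lower at 1 and 2 weeks (−0.90 and −0.56) and not called at 6 weeks (−0.39 ± 0.15, adjusted p 0.0908). Gstt2 was called at no week. Gstk1, the mitochondrial and peroxisomal kappa-class enzyme, fell by 1.1, 1.0 and 0.87 ± 0.13, and Gstz1, which isomerises maleylacetoacetate in tyrosine breakdown, by 0.72, 0.72 and 0.58 ± 0.13. Gsto1, an omega-class thioltransferase, was lower at 1 and 6 weeks (−0.85 and −0.69) and stood at −0.50 ± 0.17 at 2 weeks (adjusted p 0.0657).

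Sulfotransferases held the largest rise of the members. Sult1e1, the estrogen sulfotransferase, had log2 levels of −7.23 and −6.58, −6.45 and −6.10, and −6.31 and −6.31 in controls at 1, 2 and 6 weeks, and was well above background on 1, 1 and 2 of the 2 arrays. On CDAHFD it stood at −3.42 and −3.21, −1.49 and −2.19, and −0.19 and −0.61, above background on all 6 arrays. The diets were far apart at each week, and the CDAHFD level was lowest at 1 week and highest at 6 weeks. The difference was 3.46, 4.39 and 5.87 ± 0.28 (adjusted p 1.5e-05, 2.8e-06 and 4.3e-07). As a fold it was 58.6 at 6 weeks, and at 1 and 2 weeks, when 1 control array was not above background, at least 8.8 and 21.1. These bounds, unlike the differences, do not have the median of all genes taken off. With normexp the difference was 1.16 at 1 week and 2.48 at 2 weeks, both less than those bounds. The average over the weeks went from 4.57 to 2.53 with normexp. The fold of 58.6 was likewise taken under the main background subtraction alone.

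Sult2a8, a bile acid sulfotransferase of mouse liver, had log2 levels of 4.04 and 3.99, 4.13 and 4.15, and 3.94 and 3.91 in controls. On CDAHFD the levels were 3.38 and 3.43, 2.74 and 2.57, and 2.59 and 1.52. All CDAHFD arrays lay below all controls. It was lower at 2 and 6 weeks (−1.54 and −1.91 ± 0.26, adjusted p 0.00157 and 3.3e-04) and stood at −0.74 ± 0.26 at 1 week (adjusted p 0.0861). Sult2a7, of the same hydroxysteroid subfamily, had control log2 levels of −3.94 to −2.96 and CDAHFD levels of −6.56 to −4.40, and differed by −2.30, −2.32 and −2.31 ± 0.59 (adjusted p 0.0181, 0.0156 and 0.0141). With normexp these were −1.27, −1.29 and −1.23 (adjusted p 5.5e-04, 5.0e-04 and 9.9e-04). Its calls were lost at 1 week without control replicate 2 or either CDAHFD array (adjusted p 0.0584 to 0.0899), at 2 weeks without control replicate 2 or either CDAHFD array (0.0621 to 0.0856) and at 6 weeks without control replicate 1 (0.0816), and without CDAHFD replicate 2 the 6-week difference was −1.22. Sult2a6 was above background on both CDAHFD arrays of 6 weeks (log2 levels −5.32 and −6.25) and on no other, at least 1.95-fold higher than the controls of that week. It was measured only through that group, so its call there is given as a description. The other probes of Sult2a6 were above background on no array.

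Of the Sult1 genes, which act on phenols, Sult1b1, which also sulfates thyroid hormones, had control log2 levels of 0.36 to 0.95 and CDAHFD levels of −0.47 to −0.10 and fell by 0.99, 1.19 and 1.15 ± 0.15 (adjusted p 0.00131, 2.2e-04 and 2.2e-04). Sult1a1, the main phenol sulfotransferase of liver, was called at no week (0.38, 0.24 and 0.44 ± 0.30). Sult1d1, which sulfates catecholamines in mice, had control log2 levels of −0.56 to −0.22 and CDAHFD levels of −0.12 to 0.59, with no overlap, and was higher by 0.47, 0.81 and 0.35 ± 0.11 (adjusted p 0.00212, 2.0e-04 and 0.0194). Its 6-week call was lost without either control array or CDAHFD replicate 1 of that week (0.22 to 0.41, adjusted p 0.0504 to 0.114) with median centring (adjusted p 0.0967) and with normexp (0.43, adjusted p 0.0621), and with the mean of its 2 probes the 1-week difference was −0.09. Sult1c2 was higher at 1 week (0.65 ± 0.23, adjusted p 0.0207), a call lost without replicate 1 of either diet (0.54 and 0.56, adjusted p 0.108 and 0.135), under quantile normalization (0.53, adjusted p 0.0608) and against the controls of the other weeks (0.42, adjusted p 0.0835).

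Sult4a1, known from brain, was dim but above background on all 12 arrays by 1 of its 2 probes. The other probe was above background on no array, so the values of Sult4a1 rest on 1 probe. By the probe read, Sult4a1 had control log2 levels of −4.51 to −3.72 and CDAHFD levels of −5.84 to −4.72. It fell by 1.16, 1.15 and 1.46 ± 0.22 (adjusted p 0.00449, 0.0032 and 5.8e-04); without CDAHFD replicate 1 of 1 week the first was −0.89 (adjusted p 0.0527), and against the controls of the other weeks −0.67 (adjusted p 0.0314). With normexp the 2- and 6-week differences were −0.67 and −0.63 (adjusted p 0.0152 and 0.0294). Sult5a1 was lower at 6 weeks (−1.43 ± 0.38, adjusted p 0.0183; without replicate 1 of either diet −1.08, adjusted p 0.114 and 0.117) and stood at −1.07 and −0.66 at 1 and 2 weeks (adjusted p 0.0782 and 0.244).

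**Figure D3:**
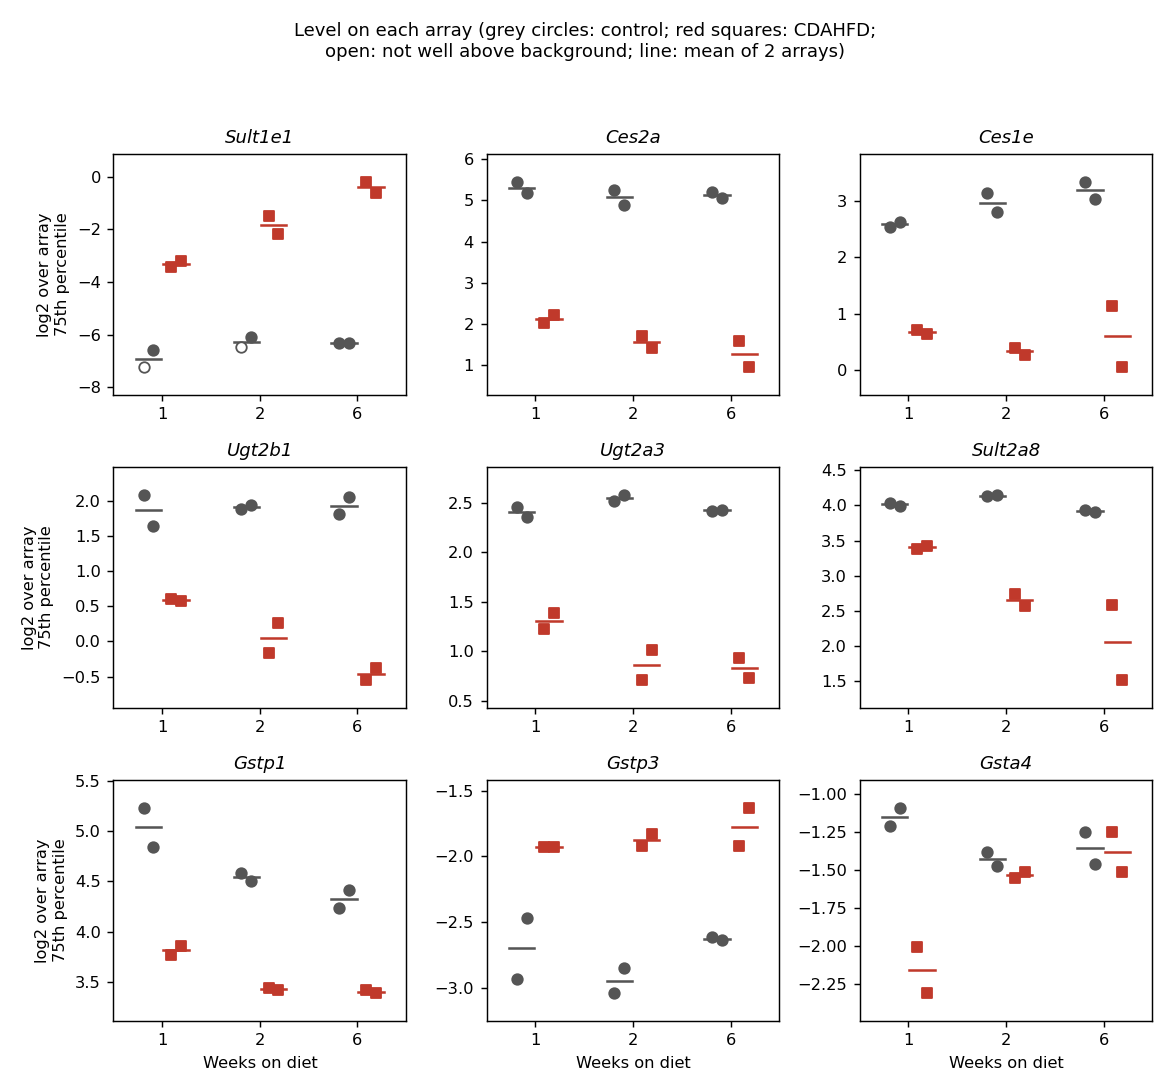
Log2 level over the array's 75th percentile of 9 genes on each of the 12 arrays, with grey circles for control, red squares for CDAHFD, open symbols for arrays not well above background and lines for the mean of 2 arrays; the weeks are drawn at equal spacing and each panel has its own axis. Sult1e1 goes from −3.42 and −3.21 to −0.19 and −0.61 on CDAHFD, Ces2a lies below its controls at each week, and the diets of Gsta4 meet by 6 weeks.

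The diet difference itself changed between 1 and 6 weeks in 6 of the 58 measured members, 2 upwards and 4 downwards, beside 2.52% and 2.75% of all genes and 5.27% either way. The filter kept Ugt2a1, 1 of the 4, only through its high group, CDAHFD at 1 week, so its downward call is a description. Without the members kept only through 1 group, 2 were called upwards and 3 downwards. Ugt2b1 (−1.11 ± 0.25, adjusted p 0.0309), Ugt2b5 (−0.72 ± 0.15, adjusted p 0.0253) and Ugt2b36 (−0.65 ± 0.16, adjusted p 0.0421) moved down, and Sult1e1 (2.35 ± 0.40, adjusted p 0.0151) and Gsta4 (1.01 ± 0.20, adjusted p 0.0254) moved up. The fourth downward call was Ugt2a1, which was below background on all 4 arrays of 6 weeks, so its change has no size; with normexp it was not called (adjusted p 0.907). No call was made for Ugt2b5 with normexp (adjusted p 0.0577), for Sult1e1 under quantile normalization (adjusted p 0.0628) or for Ugt2b36 with median centring (adjusted p 0.0562). No Ces gene was called (limma; 2 of 15 had an unadjusted p under 0.05). With few arrays these calls were unstable. Without control replicate 1 of 6 weeks 0 remained called in either direction, without either CDAHFD array of 1 week 1 higher and 0 lower, without control replicate 2 of 6 weeks 1 and 1, and without CDAHFD replicate 2 of 6 weeks 7 were lower. The median change was −0.51 for Ugt, 0.24 for Gst, −0.20 for Sult and 0.02 for Ces, and −0.69, 0.15, −0.18 and −0.10 under quantile normalization.

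The group means are given here for Gst and Ugt genes drawn in the plot of means over weeks, which were chosen after their values were seen. In Gsta3 the control mean log2 level was 5.85, 5.56 and 5.28 at 1, 2 and 6 weeks, and the CDAHFD mean 4.93, 4.78 and 4.81. In Gstm1 the control mean was 5.26, 4.89 and 4.57 and the CDAHFD mean 4.66, 4.54 and 4.45. For these genes and Gstp1 the control mean was lower at later weeks by more than the CDAHFD mean, but the change of the diet difference from 1 to 6 weeks was not called (adjusted p 0.176, 0.252 and 0.368 for Gsta3, Gstm1 and Gstp1). In Ugt2b5 the control mean was 3.99, 4.15 and 4.17 and the CDAHFD mean 3.61, 3.41 and 3.04, and in Ugt2b36 3.35, 3.43 and 3.43 against 2.88, 2.51 and 2.29. Neither course held for a whole family. The control mean of Gstk1 was 2.97, 2.99 and 3.03 and its CDAHFD mean 1.99, 2.05 and 2.20, and Ugt1a6b had 5.15, 4.92 and 4.89 in controls and 4.34, 4.34 and 4.27 on CDAHFD. The families' courses were not tested against each other. Levels of different weeks also differ in age and, at 6 weeks, in slide, which cannot be told apart.

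Over the 3 weeks within the control diet 4 members were called by limma's F test, Ces3a, Gstp1, Gstp2 and Gsta3 (adjusted p 0.0364, 0.0192, 0.0314 and 0.0421), beside 11.5% of all genes. All 4 had their highest control mean at 1 week. The count was 0 without control replicate 1 of 1 week or of 6 weeks, and 8 without either CDAHFD array of 6 weeks.

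**Figure D4:**
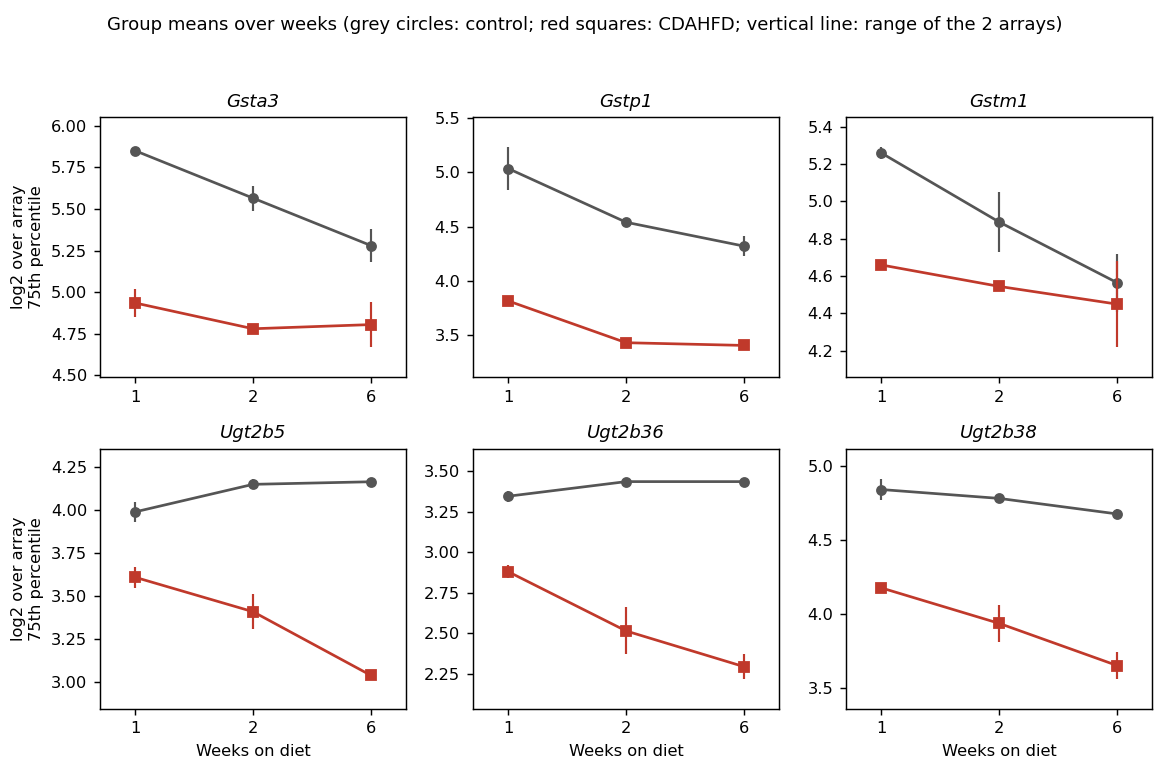
Mean log2 level over the array's 75th percentile of 6 genes at 1, 2 and 6 weeks in control (grey circles) and CDAHFD (red squares), with vertical lines for the range of the 2 arrays and the weeks at equal spacing. In Gsta3, Gstp1 and Gstm1 the control line descends towards the CDAHFD line, and in Ugt2b5, Ugt2b36 and Ugt2b38 the CDAHFD line descends from a control line that moves less.

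Genes that supply or oppose the families were read from lists of the same pathways. Beside the counts of all lists here and below, 25.8%, 23.0% and 24.6% of all genes were called higher at 1, 2 and 6 weeks. The shares called lower were 15.1%, 14.7% and 16.0%. Of 7 UDP-glucuronate supply genes 1, 1 and 1 were higher and 1, 0 and 1 lower at 1, 2 and 6 weeks, and Ugdh, which makes UDP-glucuronate, was not called (0.17, 0.03 and −0.18 ± 0.20). Of 6 measured sulfate and PAPS supply genes 1, 0 and 0 were higher and 1, 1 and 1 lower, with Papss2, the liver PAPS synthase, at −0.80 and −0.82 ± 0.17 at 1 and 2 weeks (adjusted p 0.00942 and 0.00518) and −0.30 at 6 weeks (adjusted p 0.245). Of 12 genes of glutathione synthesis and recycling 4, 3 and 3 were higher and 3, 5 and 5 lower. Gclc, the catalytic subunit of the first step, was higher at 1 week (0.65 ± 0.20, adjusted p 0.0116) and stood at −0.05 and −0.44 later. Gclm of the same list was lower at 2 and 6 weeks (−0.60 and −0.57 ± 0.19, adjusted p 0.0428 and 0.0448). At 1 week it stood at −0.59 (adjusted p 0.0765). Gss, the second enzyme of that synthesis, was higher at each week (0.39, 0.62 and 0.68), and Cbs and Cth, which make cysteine from homocysteine, were lower at each week (−1.53, −1.71 and −1.23 for Cbs, −1.03, −1.39 and −0.71 for Cth).

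Related transferases and hydrolases were called in both directions, and the higher calls among the hydrolases that undo conjugation were near the share of all genes. The membrane-bound transferase Mgst1 was lower at each week (−1.04, −0.53 and −0.43), and Mgst3 was higher at 2 and 6 weeks (0.73 and 1.53). Mgst2 was higher at each week, by at least 2.43-fold at 1 week, when both control arrays were below background. Its log2 differences at 2 and 6 weeks were 2.20 and 2.11 ± 0.52. Mgst2 was above background on 2 of the 6 control arrays in all, so these sizes are uncertain. Among 7 hydrolases that undo conjugation 2, 2 and 2 were higher and 1, 1 and 0 lower. Gusb, beta-glucuronidase, rose by 0.50, 1.29 and 1.34 ± 0.13 (adjusted p 0.004, 3.0e-05 and 2.1e-05) while its anchor Ces1e fell, and Arsa rose by 0.61, 0.51 and 0.31 ± 0.10. Of 15 other conjugating enzymes 7, 11 and 11 were lower and 1, 0 and 0 higher (8, 13 and 13 had an unadjusted p under 0.05 in either direction), with Inmt, an indolethylamine methyltransferase, at −1.99, −2.89 and −2.0 ± 0.28, and Acsm2, of glycine conjugation, at −2.28 and −1.98 ± 0.26 at 1 and 2 weeks and at least 5.04-fold lower at 6 weeks, when both CDAHFD arrays were below background. Of 13 other esterases and epoxide hydrolases 6, 4 and 4 were lower and 0 higher (6, 5 and 5 at an unadjusted p under 0.05), with Aadac, an arylacetamide deacetylase, at −0.67, −1.04 and −1.07 ± 0.10.

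Of 8 NRF2-induced genes that do not conjugate, 7, 6 and 6 were higher and 0 lower (7, 6 and 6 at an unadjusted p under 0.05), with Nqo1 at 2.22, 2.07 and 1.38 ± 0.41, Srxn1 at 2.32, 2.28 and 1.67 ± 0.22 and Cbr3 at 5.14, 5.43 and 3.33 ± 0.35. Side by side with these, of the 19 measured Gst genes, a family with several known NRF2 targets, 12, 9 and 9 were lower and 1, 3 and 2 higher. The 8 genes are a chosen list and do not stand for all NRF2 targets. In the lists above, Gclm was lower at 2 and 6 weeks (−0.60 and −0.57) and Gclc higher at 1 week alone (0.65). Gsr was called at no week (0.06, 0.16 and −0.05), and Ephx1 was lower at 1 and 2 weeks (−0.93 and −0.49). The part of NRF2 in these differences was not tested. Of 13 regulators 1, 0 and 1 were higher and 4, 4 and 5 lower at 1, 2 and 6 weeks. Hnf4a, a factor of hepatocyte identity, was lower at 1 and 2 weeks (−0.78 and −0.54 ± 0.11, adjusted p 0.00101 and 0.00556) and stood at −0.32 at 6 weeks (adjusted p 0.0587), Cebpa was lower at each week (−0.66, −0.77 and −0.90 ± 0.14), and Nfe2l2, which encodes NRF2, was not called (0.26, 0.57 and −0.05 ± 0.23). The hepatocyte markers had median differences of −0.78, −0.58 and −0.38 at 1, 2 and 6 weeks. Beside these, the Gst medians were −0.85, −0.50 and −0.39 and the Ces medians −0.97, −0.85 and −0.82. The Sult medians were −0.30, −0.57 and −0.52 and the Ugt medians −0.63, −0.82 and −1.05. The part of hepatocyte content in the family medians was not tested.

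The 16 members not measured were 10 of the 20 Sult genes, 3 Ces, 2 Gst and 1 Ugt gene. Of these, 12 were well above background on no array (Ces2f, Ces2h, Ces5a, Gstt4, Sult1c1, Sult2a3, Sult2a4, Sult3a1, Sult3a2, Sult6b1, Sult6b2 and Ugt8a). Gsto2 was above background on 1 control and 1 CDAHFD array, and Sult2a1, Sult2a2 and Sult2b1 each on 1 CDAHFD array. Their levels are not given, since a dim probe on these arrays has only an upper bound.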

How the data were processed

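The deposited values are spot intensities from Agilent Feature Extraction, background-subtracted within each array and left without scaling across arrays, per the file headers. Its version is 11.5.1.1 in those headers but 10.7 in the submitters' processing notes. There were 62976 spots an array, 0 gene spots were saturated, and control and outlier spots were left out (54 missing probe values). Log2 intensities were centred on each array's 75th percentile, computed from 20172 probes that passed background on all 12. The brightest probe by mean stood for a gene, and symbols came from unversioned accessions in RefSeq GRCm38.p6. Differences were fitted with limma 3.58.1 in R 4.3.3 (lmFit, robust eBayes with a trend), 2-sided, with 6 group means with 6 residual degrees of freedom. The number of arrays limits the precision. A fold written as at least N-fold takes the dimmer group at the lowest signal above background on its arrays, or at its own where higher, with the median of all genes not taken off. It is a bound under the main background subtraction alone, and with normexp Ces4a, Ces1a, Ugt2a1 and Sult1e1 fell short of theirs. Promoters (62 of 74 members matched) were aligned with Biopython 1.88. Named in full were 32 members, namely up to 4 anchors a family and the largest calls in the average and in the change from 1 to 6 weeks; the other members were described after their values were seen. Members, lists and alternatives were chosen with earlier results of these data known. The normexp alternative used median spot and background signals. Replicate numbers were not treated as pairs. In 4 of 15 pairs of groups the correlation of deviations was over 0.1 (−0.143 to 0.22 in all), which cannot settle whether samples were paired. On every array the replicate number was also the first index of the position on the slide, so the 2 cannot be told apart.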

Additional observations from a re-analysis of the deposited data

Results flagged for a closer look

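The diet difference of 6 members differed between 1 and 6 weeks by the test of that change itself (limma, adjusted over all genes). It moved up by 2.35 ± 0.40 (SE) in Sult1e1 (adjusted p 0.0151; higher on CDAHFD at both weeks) and by 1.01 ± 0.20 in Gsta4 (adjusted p 0.0254; lower at 1 week and −0.06 at 6 weeks). It moved down, by −1.11 ± 0.25 in Ugt2b1, −0.72 ± 0.15 in Ugt2b5 and −0.65 ± 0.16 in Ugt2b36 (adjusted p 0.0309, 0.0253 and 0.0421), all of which were lower on CDAHFD at both weeks. In Ugt2a1, which was below background on all 4 arrays of 6 weeks, the fitted value was −3.25 ± 0.66 (adjusted p 0.0247), which is no measure of size, and with normexp −0.29 (adjusted p 0.907). The filter kept Ugt2a1 only through its high group, CDAHFD at 1 week, so its call is a description. Each of these calls was lost without at least 1 array of 1 or 6 weeks. The adjusted p then reached 0.0605 for Sult1e1, 0.0865 for Gsta4, 0.100 for Ugt2b1, 0.0924 for Ugt2b5 and Ugt2a1, and 0.133 for Ugt2b36, and the cause was not tested.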

How the results depend on the processing

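With 2 arrays a group, leaving out 1 array moved the number of members called from 29 to 43 at 1 week (higher 3 to 7, lower 26 to 36), 31 to 42 at 2 weeks (4 to 7, 25 to 36), 28 to 43 at 6 weeks (4 to 8, 24 to 37), 44 to 48 in the average (7 to 9, 37 to 40), 0 to 9 for the change from 1 to 6 weeks (0 to 3, 0 to 7) and 0 to 8 over the control weeks. The number called higher was 3 at 1 week with the percentile over all probes, with normexp and with genes above background on all arrays, 3 at 6 weeks with the latter 2 settings and 10 with no filter, and 4 in the average with the percentile over all probes. Quantile normalization gave 19 lower at 1 week, 1 higher and 8 lower for the change, and 2 over the control weeks; normexp gave 2 and no variance trend 1 over the control weeks. For the change, genes above background on all arrays gave 1 higher and no variance trend 2 lower. Reversed values were Ugt2b5 0.04 and Ces1c 0.09 at 1 week and Gstm1 0.09 in the average (quantile), Ugt2a1 −0.15 and Ces1a −0.36 at 1 week (normexp) and Sult1d1 −0.09 at 1 week (mean of its probes); the cause was not tested. Scaling moved the median of all genes at 1 week by −0.18 (median centring), −0.28 (percentile over all probes) and −0.33 (normexp), and the share of all calls that were higher from 63.2% to 45.3%, 36.1% and 33.2%, while members stayed mostly lower (5 higher and 34 lower, 3 and 38, 3 and 32). With the replicate number as a block 31 members were lower at 1 week and 40 in the average, and 133 of 134 results of named genes kept their call, the exception being the change of Ugt2b36 (adjusted p 0.0535). A slide block was not run, since slides and weeks coincide. Dim probes are limited by signal over background, and 16 members could not be measured.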
